A study of Mus musculus with 30 samples.

Results

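Described here are 39 genes of the extracellular matrix and of cell adhesion in mouse liver, taken by gene symbol from the 55335 genes of the count table, with each symbol matching a single row. They comprised 5 chains of the fibrillar collagens (Col1a1, Col1a2, Col3a1, Col5a1 and Col5a2), the 3 chains of type VI collagen, 11 basement membrane genes (Col4a1, Col4a2, 7 laminin chains, Nid1 and Hspg2), 3 other collagens (Col14a1, Col15a1 and Col18a1), 4 genes of elastic fibres and their cross-linking (Eln, Fbn1, Lox and Loxl1), 3 small leucine-rich proteoglycans (Dcn, Lum and Bgn), 5 metalloproteinases or their inhibitors, the 3 glycoproteins Fn1, Sparc and Dpt, and the 2 adhesion receptors Vcam1 and Icam1. RNA-seq was performed in livers of male mice of 7 to 10 weeks on an albino C57BL/6J background. Wild-type (WT) mice, mice homozygous for the Keap1 C151S knock-in, and homozygous Nrf2-knockout mice each received vehicle (DMSO and Cremophor-EL in PBS) or CDDO-Me at 30 µmol/kg by mouth, as 1 dose, and livers were harvested 24 hours later, with 5 mice and 5 libraries in each of the 6 groups. In C151S mice a reactive cysteine of KEAP1 is replaced by serine. The WT mice were purchased, whereas both mutant lines were bred as homozygotes, so that genotype and colony cannot be told apart in any comparison of a mutant with WT.

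The liver is unusual in that the sinusoids, its capillaries, lack a continuous basement membrane, and a loose matrix of collagens, laminin, perlecan, and fibronectin fills the space between endothelium and hepatocytes. Stellate cells, portal fibroblasts, and endothelial cells make most of the collagens, proteoglycans, and laminins, whereas hepatocytes secrete fibronectin and are a main source of collagen XVIII. KEAP1 marks the transcription factor NRF2 for degradation, and CDDO-Me (bardoxolone methyl), a synthetic triterpenoid, releases NRF2 by reacting with the cysteine that is replaced in C151S mice.

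Between 23667068 and 42073169 counts fell on genes in each library. Expression is given as CPM, counts scaled to library size with TMM factors from edgeR, n is 5 mice in every group, and a log2 difference is the fitted log2 fold change between groups. Gene coordinates are those of GRCm38. Nfe2l2, which encodes NRF2, stood at 65.7 ± 3.64 CPM (SD, n = 5) in vehicle-treated WT mice and at 35.2 ± 4.76 CPM (SD, n = 5) in vehicle-treated Nrf2-knockout mice. Nqo1, a target of NRF2, averaged 7.14 ± 2.34 CPM with vehicle and 64.0 ± 25.1 CPM with CDDO-Me in WT mice (SD, n = 5 per group), but only from 6.71 to 7.07 CPM in C151S and from 1.96 to 2.57 CPM in Nrf2-knockout mice on average. Alb, the hepatocyte marker, was at 48703 CPM or more in all 30 libraries, and the summed markers of pancreas, adipocyte and neutrophil stayed at or under 14.4 CPM. The summed gut markers were higher, from 20.2 to 57.2 CPM, and the summed erythroid markers ranged from 45.2 to 258 CPM. By the clock gene Arntl, 19 libraries lay between 2.53 and 4.80 log2 CPM (the high side) and 11 between -1.18 and 0.90 (the low side). All 10 WT libraries were on the high side, whereas the low side held 2 vehicle-treated and 3 CDDO-Me-treated C151S mice and 3 vehicle-treated and 3 CDDO-Me-treated Nrf2-knockout mice. For comparisons of a mutant with WT mice, the count of genes called on the high side alone stands beside the count over all mice.

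Levels of the 39 genes spanned more than 3 orders of magnitude on a scale per length. In vehicle-treated WT mice Col18a1 and Fn1 led with 150.6 ± 15.7 and 116 ± 11.8 CPM per kb of exon (SD, n = 5 each), and these 2 genes together held between 60.0% and 87.8% of the summed CPM of all 39 in the 30 libraries. Col18a1 encodes the collagen from which endostatin is cut, and Fn1 encodes fibronectin, which circulates in plasma and links cells to collagen. Dcn (15.4 ± 2.60), Sparc (14.4 ± 3.25) and Bgn (13.1 ± 2.26 CPM per kb, SD, n = 5 each) followed and did not differ beyond their spread, and then Col14a1 with 6.22 ± 1.43. Decorin and biglycan are proteoglycans that bind collagen fibrils, and Sparc is a collagen-binding glycoprotein of stellate and endothelial cells. The major fibrillar chains were low in these livers, with Col3a1 at 3.68 ± 1.29, Col1a1 at 1.20 ± 0.266 and Col1a2 at 1.07 ± 0.247 CPM per kb (SD, n = 5 each), and the latter 2 did not differ beyond their spread. At the bottom were Lama2 (0.173 ± 0.0461), Timp1 (0.0735 ± 0.0590) and Lox (0.0515 ± 0.0185 CPM per kb). Timp1, a metalloproteinase inhibitor that injured liver induces, had 3 counts or fewer in 4 of 5 of these mice, and Lox, which cross-links collagen, had 4 to 11 counts. Of the 39 genes, 37 or 38 passed edgeR's filter on low counts in each comparison. Timp1 was never tested, and Lox was tested only between C151S and Nrf2-knockout mice, between CDDO-Me and vehicle in Nrf2-knockout mice, and in the contrasts of responses.

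**Figure D1:**
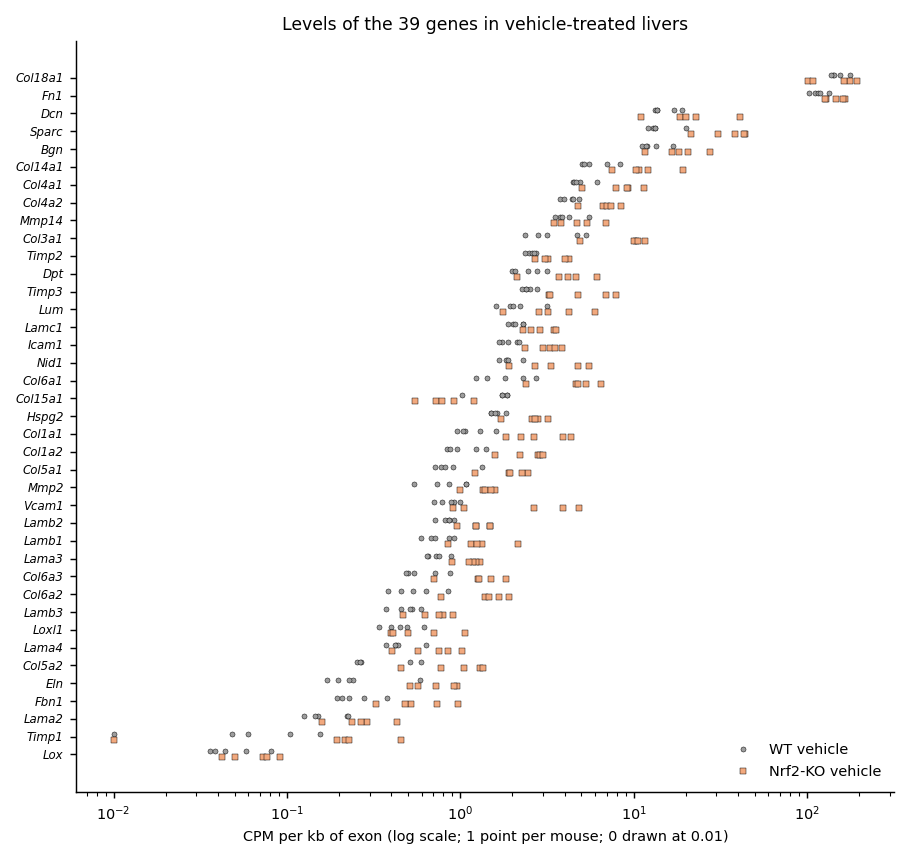
Levels of the 39 genes in vehicle-treated WT (circles) and Nrf2-knockout (squares) livers, as CPM per kb of exon on a log scale, 1 point per mouse, with 0 drawn at 0.01, and ordered by the mean in WT mice. Col18a1 and Fn1 stand above 100 CPM per kb, apart from the other 37 genes, and the Nrf2-knockout points lie to the right of the WT points for most genes but not for Col18a1 and Col15a1.

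In Nrf2-knockout livers without CDDO-Me, all 5 fibrillar collagen chains, all 3 type VI chains, 8 of 11 basement membrane genes and both adhesion receptors were higher than in WT livers. In vehicle-treated mice, 24 of the 37 genes tested were higher in Nrf2-knockout than in WT livers and 1 was lower (edgeR's quasi-likelihood test, false discovery rate under 0.05 and absolute log2 fold change of at least 0.5). Over all 14030 genes tested, 10.4% were called in this comparison, and 6.29% were called higher. The median log2 fold change was 0.75 over the 37 genes and 0.01 over all genes tested, and 35 of the 37 values were positive. Of the 3 other collagens, 1 was higher and 1 was lower, and 0 of the 3 small leucine-rich proteoglycans passed. With 8 genes, the 5 values in Nrf2-knockout mice all lay above the 5 in WT mice, against 5.37% of all genes tested. In whole-liver RNA, more cells of a type cannot be told apart from more RNA per cell. Markers of those cells moved in the same comparison, as given further on with their values.

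Among the fibrillar collagens, which form the banded fibres of scar and vessel wall, Col1a1 (ENSMUSG00000001506.10, chromosome 11, 94936224 to 94953042) stood at 8.57, 10.6, 6.32, 7.0 and 6.79 CPM in the 5 WT mice and at 12.1, 25.6, 14.8, 17.6 and 28.6 CPM in the 5 Nrf2-knockout mice, a log2 difference of 1.34 (SE 0.24, adjusted p = 0.0047). Its partner chain in type I collagen, Col1a2 (ENSMUSG00000029661.16, chromosome 6, 4504814 to 4541544), was at 15.3, 17.5, 10.5, 12 and 10.9 against 19.8, 34.9, 27.4, 35.9 and 37.5 CPM, with a log2 difference of 1.24 (SE 0.20, adjusted p = 0.0027). For both chains the groups did not overlap. Col3a1 (ENSMUSG00000026043.18, chromosome 1, 45311538 to 45349706), the type III chain that shares fibrils with type I, went from 46.2, 52.5, 23.1, 31.2 and 27.4 to 48.1, 101, 98.4, 115 and 105 CPM, with a log2 difference of 1.38 (SE 0.27, adjusted p = 0.007). The first Nrf2-knockout mouse lay inside the WT range, and the other 4 lay above it. Type V chains, which seed fibrils, were lower in level but similar in fold. Col5a1 (ENSMUSG00000026837.16, chromosome 2, 27886425 to 28039514) was at 7.75, 11.4, 6.11, 6.57 and 6.96 CPM in WT and 10.4, 16.2, 16.5, 21 and 19.2 CPM in Nrf2-knockout mice, with a log2 difference of 1.11 (SE 0.21, adjusted p = 0.0059). Col5a2 (ENSMUSG00000026042.16, chromosome 1, 45374321 to 45503282) was at 4.95, 5.67, 2.45, 2.56 and 2.53 against 4.34, 10.1, 12.4, 13 and 7.45 CPM, with a log2 difference of 1.40 (SE 0.34, adjusted p = 0.018). In each of these 2 genes only the lowest Nrf2-knockout mouse reached into the WT range.

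The 3 chains of type VI collagen, which forms beaded filaments around cells, moved together. Col6a1 (ENSMUSG00000001119.7, chromosome 10, 76708792 to 76726168) stood at 10.1, 12, 5.37, 7.93 and 6.26 CPM in WT and 10.5, 20.3, 21.1, 28.4 and 23.4 CPM in Nrf2-knockout mice, with a log2 difference of 1.33 (SE 0.27, adjusted p = 0.0091). Col6a2 (ENSMUSG00000020241.13, chromosome 10, 76595762 to 76623630) was at 5.30, 7.09, 3.79, 4.44 and 3.20 against 6.49, 11.5, 12.2, 16 and 13.9 CPM, with a log2 difference of 1.35 (SE 0.26, adjusted p = 0.0065), and Col6a3 (ENSMUSG00000048126.16, chromosome 1, 90765923 to 90843971) at 8.61, 10.4, 5.95, 6.51 and 5.80 against 8.42, 17.9, 15.2, 21.9 and 15.4 CPM, with a log2 difference of 1.09 (SE 0.24, adjusted p = 0.013). In all 3 genes the first Nrf2-knockout mouse overlapped the WT mice, and the other 4 were above all of them.

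Sparc had the lowest p of the 37 genes in this comparison. Sparc (ENSMUSG00000018593.13, chromosome 11, 55394500 to 55423183) stood at 49.2, 76.2, 50.5, 45.9 and 50.3 CPM in the 5 WT mice and 80.7, 145, 165, 165 and 116 CPM in the 5 Nrf2-knockout mice, a log2 difference of 1.32 (SE 0.20, adjusted p = 0.0024), and the groups did not overlap. The elastic fibre genes were rarer. Eln (ENSMUSG00000029675.12, chromosome 5, 134702593 to 134747323), which encodes elastin, was at 1.94, 4.73, 1.84, 1.60 and 1.37 against 4.16, 4.62, 7.80, 5.88 and 7.49 CPM, with a log2 difference of 1.40 (SE 0.33, adjusted p = 0.016), and Fbn1 (ENSMUSG00000027204.13, chromosome 2, 125300594 to 125507993), which encodes the microfibril protein fibrillin, at 3.36, 4.56, 2.76, 2.37 and 2.53 against 3.95, 6.31, 8.91, 11.7 and 5.84 CPM, with a log2 difference of 1.25 (SE 0.29, adjusted p = 0.015). The groups overlapped in both genes, for Fbn1 through the first Nrf2-knockout mouse and for Eln through the second WT mouse, whose 4.73 CPM exceeded the 1.94 CPM of the next highest.

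Of the 11 basement membrane genes 8 were called higher, and the 11 log2 fold changes ran from 0.50 to 0.94. Col4a1 (ENSMUSG00000031502.11, chromosome 8, 11198423 to 11312826) and Col4a2 (ENSMUSG00000031503.13, chromosome 8, 11312805 to 11449287), which encode the 2 chains of the common type IV network and start head to head, were at 36.9 ± 5.11 and 28.4 ± 2.82 CPM in WT mice, with 63.9 ± 17.4 and 45.4 ± 8.79 CPM in the knockout (SD, n = 5 per group). Per mouse, Col4a1 was at 36.5, 45.8, 33.6, 33.7 and 34.9 against 37.7, 59.4, 69, 85.2 and 68.3 CPM and Col4a2 at 29.1, 25, 26.4, 32.1 and 29.6 against 31.7, 44.1, 46.8, 48.9 and 55.7 CPM. The log2 fold changes were 0.80 (SE 0.18, adjusted p = 0.014) for Col4a1 and 0.68 (SE 0.14, adjusted p = 0.0087) for Col4a2, and the first Nrf2-knockout mouse alone overlapped the WT mice in both. Of the laminins, the cross-shaped trimers of basement membranes, 4 of 7 chains were called. Lama3 (ENSMUSG00000024421.16, chromosome 18, 12333819 to 12583013), the alpha chain of epithelial laminin, was at 7.84, 7.02, 9.48, 6.94 and 8.09 against 14, 13.3, 12.8, 12.1 and 9.60 CPM, with a log2 difference of 0.66 (SE 0.12, adjusted p = 0.0056) and no overlap. Lamb2 (ENSMUSG00000052911.9, chromosome 9, 108479736 to 108490530) went from 4.35, 5.56, 4.95, 5.24 and 5.27 to 5.83, 7.47, 7.54, 8.98 and 9.0 CPM, with a log2 difference of 0.62 (SE 0.13, adjusted p = 0.012) and no overlap, and Lamc1 (ENSMUSG00000026478.14, chromosome 1, 153218922 to 153332786), the gamma chain most laminins share, from 19, 19, 16.6, 17 and 15.5 to 19.1, 23.9, 28.9, 29.6 and 21.3 CPM, with a log2 difference of 0.50 (SE 0.13, adjusted p = 0.025) and no overlap. Lamb1 (ENSMUSG00000002900.16, chromosome 12, 31265234 to 31329644) stood at 8.57, 9.09, 6.77, 5.89 and 7.07 against 8.39, 11.5, 13.3, 21.3 and 12.4 CPM, with a log2 difference of 0.85 (SE 0.22, adjusted p = 0.025). The chains not called were Lamb3, Lama4 and Lama2, at 0.54, 0.66 and 0.69 on the log2 scale (adjusted p = 0.068, 0.072 and 0.09). Nid1 (ENSMUSG00000005397.8, chromosome 13, 13437551 to 13512269), which bridges laminin and collagen IV, was at 13, 16, 12.8, 11.6 and 13 against 13.2, 23.2, 33.4, 38.2 and 18.7 CPM, with a log2 difference of 0.94 (SE 0.25, adjusted p = 0.025), and Hspg2 (ENSMUSG00000028763.18, chromosome 4, 137468769 to 137570630), which encodes perlecan, at 21.7, 23.2, 21.7, 22.6 and 26.4 against 24.6, 36.9, 40.2, 38.5 and 46.2 CPM, with a log2 difference of 0.70 (SE 0.15, adjusted p = 0.0098).

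The 3 other collagens went separate ways. Col14a1 (ENSMUSG00000022371.16, chromosome 15, 55307750 to 55520803), a collagen on fibril surfaces, was at 49.3, 58.5, 38.8, 35.5 and 36.1 CPM in WT and 52.7, 75.1, 85.1, 135 and 72.4 CPM in Nrf2-knockout mice, with a log2 difference of 0.96 (SE 0.23, adjusted p = 0.018). Col15a1 (ENSMUSG00000028339.17, chromosome 4, 47208161 to 47313167), a collagen of vessel walls related to Col18a1, was the only one of the 37 called lower in this comparison. It stood at 11.8, 6.46, 11, 11.8 and 11.1 CPM in WT and 4.61, 5.85, 4.96, 3.46 and 7.59 CPM in Nrf2-knockout mice, with a log2 difference of -0.97 (SE 0.22, adjusted p = 0.013). Within the high Arntl side, which leaves 2 Nrf2-knockout mice, its log2 fold change was -0.90 (adjusted p = 0.11), which did not pass. Col18a1 (ENSMUSG00000001435.15, chromosome 10, 77052178 to 77166548) was at 992, 1003, 967, 1237 and 1089.7 CPM in WT and 1244, 1148, 709, 760.3 and 1369.7 CPM in Nrf2-knockout mice, with a log2 fold change of -0.01 (adjusted p = 0.98).

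Among genes of matrix turnover and adhesion, Timp3 (ENSMUSG00000020044.13, chromosome 10, 86300372 to 86349506), the inhibitor that is itself bound to matrix, was at 20.7, 22.6, 19.6, 18.5 and 19.4 against 26.5, 38.7, 64.9, 56.8 and 26.8 CPM, with a log2 difference of 1.10 (SE 0.24, adjusted p = 0.012) and no overlap. Mmp2 (ENSMUSG00000031740.8, chromosome 8, 92827291 to 92853420), a gelatinase, was at 3.66, 3.66, 1.82, 2.47 and 2.92 against 3.36, 5.34, 4.57, 4.71 and 5.10 CPM, with a log2 difference of 0.68 (SE 0.21, adjusted p = 0.044). It had the highest p of the 25 genes called. Timp2 passed the false discovery rate but not the size limit, with a log2 difference of 0.43 (SE 0.13, adjusted p = 0.041), and Mmp14, which activates Mmp2, had a log2 fold change of 0.24. Vcam1 (ENSMUSG00000027962.14, chromosome 3, 116109949 to 116129688), through which endothelium holds leukocytes, stood at 6.24, 6.98, 8.82, 8.17 and 7.81 against 8.10, 23.6, 42.8, 35 and 9.30 CPM, the highest log2 fold change of the 37 at 1.66 (SE 0.41, adjusted p = 0.021). The first Nrf2-knockout mouse lay inside the WT range, the fifth just above it and the other 3 far above it. Icam1 (ENSMUSG00000037405.8, chromosome 9, 21015985 to 21028817), another receptor for leukocytes, was at 8.18, 9.26, 9.53, 7.62 and 7.28 against 10.3, 13, 14.3, 15.4 and 16.8 CPM, with a log2 difference of 0.75 (SE 0.14, adjusted p = 0.0057) and no overlap. Not called besides those named were Fn1 (0.34, adjusted p = 0.052), Dpt (0.75, adjusted p = 0.056), Loxl1 (0.42) and the proteoglycans Bgn, Dcn and Lum (0.55, 0.57 and 0.73). The count of 25 genes called stayed between 20 and 32 with each mouse left out in turn and was 28 on the high Arntl side alone, with 28 higher and 0 lower. Of all genes tested, 8.08% were called on that side, against 10.4% over all mice. Calls were lost in at least 1 of 9 other settings for Col5a2, Col15a1, Lama3, Lamb1, Lamc1, Nid1, Timp3, Mmp2 and Vcam1, with adjusted p reaching 0.14 for Col15a1. With a mouse left out, Mmp2, Lamc1, Nid1, Lamb1, Vcam1 and Col14a1 kept their calls in 3, 5, 5, 6, 8 and 9 of 10 fits, and the other 19 genes called kept them in all 10.

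**Figure D2:**
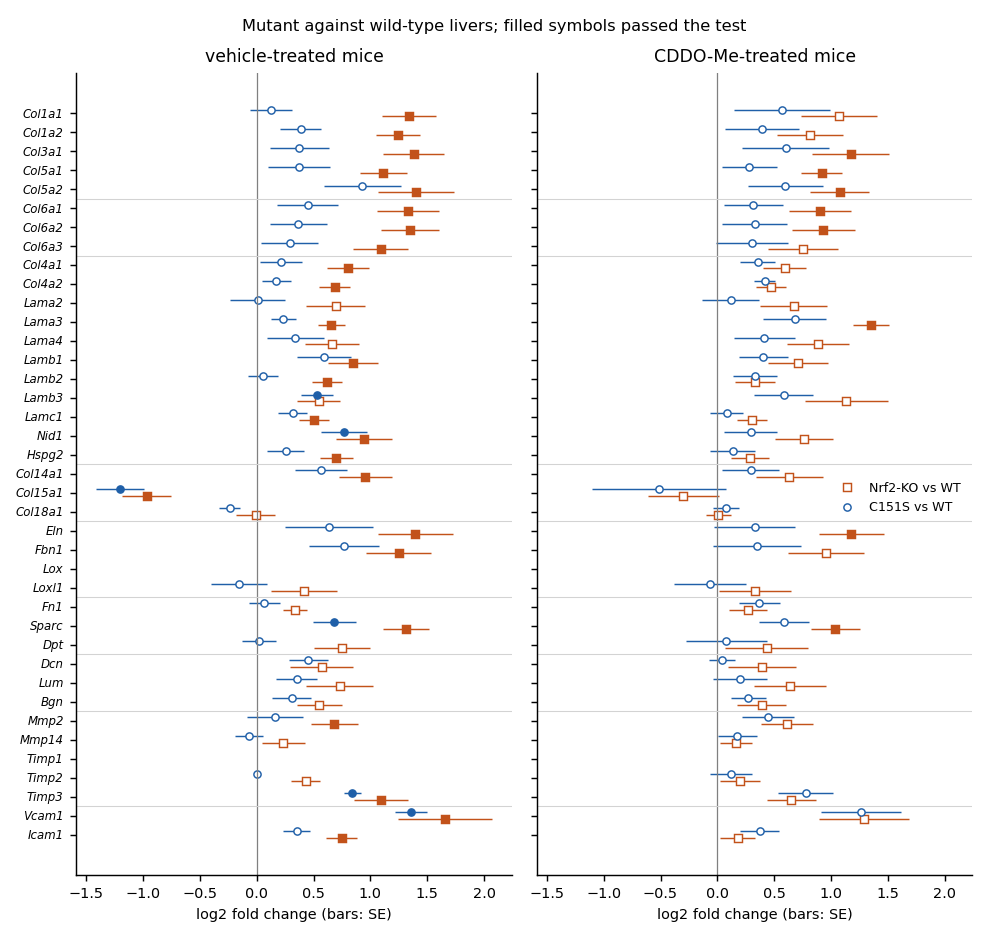
Log2 fold changes of mutant against WT livers for the genes tested, in vehicle-treated (left) and CDDO-Me-treated mice (right), grouped by role from fibrillar collagens at the top to adhesion receptors at the bottom. Squares are Nrf2-knockout and circles C151S mice, bars are SE (none drawn for Timp2 in vehicle-treated C151S mice, whose difference was near 0), and filled symbols passed the test (25 and 6 genes on the left, 8 and 0 on the right). Most symbols lie right of 0, with Col15a1 to the left.

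Start sites were read for motifs because many members moved together between genotypes. RefSeq windows of 300 bases (250 before and 50 from the transcription start on, GRCm38.p6) were at hand for 25 of the 39 genes. These 25 genes had 28 windows. A gene was counted when any of its windows held a match, whereas the shares of all windows count single windows. The core of the antioxidant response element bound by NRF2, TGACNNNGC on either strand, was found in windows of 3 of the 25 (Col4a2, Col6a2 and Timp2) and in 12.4% of all 32851 windows. The sites are shown with 10 bases on either side, 5′ to 3′ on the strand of the gene, with the match in capitals, because NRF2 is the factor removed in the knockout. In Timp2 the match lies on the opposite strand and is seen as its reverse complement.
Col4a2: ccgggtgcggTGACTCTGCgcagagacct
Col6a2: ccccacccgcTGACCCCGCccatccgcgg
Timp2: ccaatccagcGCGCAGTCAggtacgcagc
They lie at chr8:11312721-11312749 (plus strand), chr10:76623458-76623486 (minus strand) and chr11:118355545-118355573 (minus strand), with the first base of the match 74, 72 and 152 bases before the RefSeq start. By GENCODE, Col6a2 and Timp2 begin further upstream, at 76623630 and 118355740 on the minus strand, so that these 2 sites lie inside the GENCODE span of the gene. Of these 3 genes Col4a2 and Col6a2 were called higher in vehicle-treated Nrf2-knockout mice, as were 16 of all 25 genes with a window. With CDDO-Me in WT mice 0 of the 3 were called. The letters TATAAA, the core of a TATA box, were found on either strand in windows of 3 of 25 (Col3a1, Dpt and Icam1) against 13.6% of all windows, CCAAT in 9 of 25 against 37.4%, and the GC box GGGCGG in 17 of 25 against 35.7%. In Col3a1 the match begins 117 bases before the start, and in Dpt and Icam1 it begins at bases 13 and 14 of the transcript. Col3a1, the fibrillar chain among the 3, is shown with the 250 bases before its start (chr1:45311288-45311537, plus strand) and TATAAA in capitals.
Col3a1: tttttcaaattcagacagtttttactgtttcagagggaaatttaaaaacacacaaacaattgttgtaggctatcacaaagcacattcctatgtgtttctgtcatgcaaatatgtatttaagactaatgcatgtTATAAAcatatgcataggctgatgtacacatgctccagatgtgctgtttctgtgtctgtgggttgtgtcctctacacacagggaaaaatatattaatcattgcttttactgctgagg
A match is a description of letters in these windows and shows no binding.

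C151S livers were compared with WT livers in the same way. In vehicle-treated mice, 5 of the 37 genes tested were higher than in WT livers and 1 was lower, where 4.84% of all genes tested were called and 2.59% were called higher. The median log2 fold change was 0.34 against 0.01 over all genes tested, and 33 of 37 values were positive. The WT mice are the same as in the comparison above. With 3 genes the C151S mice all lay above the WT mice, against 3.52% of all genes tested. Timp3 was at 36.6, 35.5, 33.9, 35.8 and 38.2 CPM in the 5 C151S mice, all above the highest WT value of 22.6 CPM, with a log2 difference of 0.84 (SE 0.07, adjusted p = 2.6e-04). Vcam1 was at 16.6, 17.5, 23.8, 15.7 and 23.6 CPM, all above the highest WT value of 8.82 CPM, with a log2 difference of 1.36 (SE 0.14, adjusted p = 7.1e-04). Lamb3 (ENSMUSG00000026639.18, chromosome 1, 193207699 to 193343878), the beta chain of epithelial laminin, stood at 3.92, 3.01, 3.48, 2.47 and 3.41 CPM in WT and 4.70, 5.42, 4.38, 4.35 and 4.52 CPM in C151S mice, with a log2 difference of 0.53 (SE 0.14, adjusted p = 0.042) and no overlap. Nid1 was at 25.6, 27.1, 29.9, 12.8 and 17.1 CPM in C151S mice, with a log2 difference of 0.77 (SE 0.21, adjusted p = 0.042), and Sparc at 94.7, 97.8, 106, 52.7 and 83.4 CPM, with a log2 difference of 0.68 (SE 0.19, adjusted p = 0.047). In both, the fourth C151S mouse fell within the WT range. Col15a1 fell to 4.80, 3.52, 6.40, 4.67 and 3.16 CPM, all below the lowest WT value of 6.46 CPM, with a log2 difference of -1.20 (SE 0.21, adjusted p = 0.0073). Col18a1 was at 913, 962, 939, 812 and 841 CPM, also all below the lowest WT value. Its log2 difference of -0.24 (SE 0.09, adjusted p = 0.12) did not pass. Timp3, Vcam1 and Col15a1 passed with each of the 10 mice left out in turn, whereas Lamb3, Sparc and Nid1 did so in 2, 2 and 3 of the 10 fits. Under 9 other settings Timp3 kept its call in all 9, Vcam1, Col15a1, Nid1 and Sparc each in 8, and Lamb3 in 6. In those settings the adjusted p reached 0.053 for Vcam1 and 0.13 for Col15a1.

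The fibrillar and type VI collagens, which led the comparison of Nrf2-knockout with WT mice, had log2 fold changes from 0.12 to 0.93 in C151S mice, and 0 of 8 passed. Col5a2 was the highest of them, with a log2 difference of 0.93 (SE 0.34, adjusted p = 0.11), and Col1a1 the lowest, with a log2 difference of 0.12 (SE 0.18, adjusted p = 0.71). The count of 6 changed with single mice. It was 3 without WT mouse 3, 4 or 5 or C151S mouse 1, 2 or 3. It was 11 without the fourth C151S mouse, which was the lowest of its group for 33 of 37 genes. The share over all genes tested is not given for these fits, so a change over all genes cannot be told apart. In a single fit of all 30 libraries the count was 1 (2.54% of all genes tested). On the high Arntl side, with 3 C151S mice, 15 genes were called, 14 higher and 1 lower, and the median log2 fold change was 0.50. Calls rose over all genes as well, with 14.2% of those tested called on the high side against 4.84% over all mice.

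The mutants were then compared with each other. In vehicle-treated mice 0 of 38 genes tested passed between C151S and Nrf2-knockout livers by edgeR's quasi-likelihood test, where 0.349% of all genes tested were called. All 38 log2 fold changes were negative, that is, higher in Nrf2-knockout mice, with a median of -0.43 against -0.01 over all genes tested, and 18 had an unadjusted p under 0.05, against 11.3% of all genes tested. DESeq2 called 4. Col1a1 had the lowest p. Its 5 C151S values of 7.59, 9.09, 7.98, 6.20 and 11.6 CPM all lay below the lowest Nrf2-knockout value of 12.1 CPM, with a log2 difference of -1.21 (SE 0.24, adjusted p = 0.069). Without the first Nrf2-knockout mouse, which was the lowest of its group for 31 of 37 genes, 3 genes passed. After CDDO-Me, 0 of 38 passed between C151S and Nrf2-knockout mice by edgeR's test, where 0.162% of all genes tested were called. By that test 5 had an unadjusted p under 0.05, against 7.82% of all genes tested. DESeq2 called 0 of the 38 and 0.832% of all genes tested. Eln was the lowest in p there, at 1.60, 3.91, 1.34, 2.63 and 3.05 CPM in C151S and 4.54, 4.65, 4.36, 3.28 and 5.91 CPM in Nrf2-knockout mice, with a log2 difference of -0.85 (SE 0.28, adjusted p = 0.44).

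Treatment with CDDO-Me was compared with vehicle within each genotype. In WT mice, 1 of 37 genes tested passed, and it fell, where 2.75% of all genes tested were called. Over all genes, 1.10% were called lower. An unadjusted p under 0.05 was found for 4 of the 37 and for 17.0% of all genes tested. That gene was Lama3. It stood at 7.84, 7.02, 9.48, 6.94 and 8.09 CPM with vehicle and at 3.84, 4.08, 4.0, 3.65 and 3.87 CPM with CDDO-Me, a log2 difference of -1.03 (SE 0.11, adjusted p = 1.4e-04), and the groups did not overlap. It passed under all 7 other settings and with each of the 10 mice left out. In C151S mice Lama3 was at 9.64, 8.22, 9.61, 10.2 and 8.55 CPM with vehicle and 7.09, 7.97, 8.42, 5.24 and 2.29 CPM with CDDO-Me, with a log2 difference of -0.58 (SE 0.28, adjusted p = 0.37). The treated C151S mice were spread widely, with the third mouse inside the range of the vehicle-treated mice, the other 4 below it, and the fifth below every WT mouse. In Nrf2-knockout mice it was at 14, 13.3, 12.8, 12.1 and 9.60 against 14, 8.11, 10.6, 8.42 and 8.50 CPM, with a log2 difference of -0.33 (SE 0.17, adjusted p = 0.66). The difference of the responses did not pass in a fit of all 30 libraries. It was -0.44 (SE 0.29, adjusted p = 0.74) on the log2 scale for WT minus C151S and -0.70 (SE 0.29, adjusted p = 0.68) for WT minus Nrf2-knockout mice.

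Icam1 went the other way without passing the size limit. It was at 8.18, 9.26, 9.53, 7.62 and 7.28 CPM with vehicle and 12.2, 13.6, 10.2, 10.02 and 11.4 CPM with CDDO-Me in WT mice, with no overlap and a log2 difference of 0.45 (SE 0.11, adjusted p = 0.036). In C151S mice it was at 10.4, 12.6, 11.8, 9.14 and 9.31 against 22.1, 13.3, 12.7, 11.2 and 14.8 CPM, with a log2 difference of 0.46 (SE 0.18, adjusted p = 0.35), and in Nrf2-knockout mice at 10.3, 13, 14.3, 15.4 and 16.8 against 11.7, 17.9, 9.94, 11.6 and 14 CPM, with a log2 difference of -0.12 (SE 0.17, adjusted p = 0.88). Its response differed by 0.56 (SE 0.23, adjusted p = 0.65) between WT and Nrf2-knockout mice and by 0.58 (SE 0.23, adjusted p = 0.94) between C151S and Nrf2-knockout mice, neither of which passed. Mmp14, the membrane-bound collagenase, had a log2 difference of 0.43 (SE 0.12, adjusted p = 0.072) in WT mice. The other 34 genes tested in WT mice lay between -0.49 (Col3a1) and 0.27 (Timp3). Of the cell type markers, S100a8 of the neutrophil list was higher in the same comparison, at 0.267 CPM with vehicle and 0.868 CPM with CDDO-Me and a log2 difference of 1.69 (SE 0.38, adjusted p = 0.023). Ly6g and Mpo of that list were at 3 counts or fewer in all 10 mice, and its sum ranged from 0.648 to 1.42 and 1.01 to 2.95 CPM. Its part in the values of Lama3 and Icam1 was not tested.

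In C151S mice 0 of 37 genes tested passed between CDDO-Me and vehicle by edgeR's test, where 0.0920% of all genes tested were called. By that test 2 had an unadjusted p under 0.05, against 13.7% of all genes tested. DESeq2 called 0 of the 37 and 0.708% of all genes tested. Mmp14 (ENSMUSG00000000957.11, chromosome 14, 54431612 to 54445364) had the lowest p. It was at 24.6, 26.8, 23.5, 20.3 and 23.4 CPM with vehicle and 50.2, 31, 26.9, 32.1 and 48.9 CPM with CDDO-Me, with no overlap and a log2 difference of 0.66 (SE 0.17, adjusted p = 0.33), which did not pass. In Nrf2-knockout mice 0 of 38 passed by edgeR's test, where 0% of all genes tested were called, and DESeq2 called 0 of the 38 and 0.380% of all genes tested. An unadjusted p under 0.05 was found for 7 of the 38 and for 7.85% of all genes tested. There, 34 of 38 log2 fold changes were negative, with a median of -0.33 against -0.01 over all genes tested. Col1a1 had the lowest p, at 11.3, 13.9, 16.8, 10.7 and 11.9 CPM after CDDO-Me, with a log2 difference of -0.63 (SE 0.23, adjusted p = 0.57). The contrasts of responses called 0 of 38 genes in each of the 3 pairs of genotypes by edgeR and by DESeq2, with 0 (WT minus C151S), 2 (WT minus Nrf2-knockout) and 3 (C151S minus Nrf2-knockout) at an unadjusted p under 0.05, against 8.31%, 6.28% and 4.92% of all genes in that fit. The lowest p for WT minus C151S was that of Col18a1, at -0.31 (SE 0.20, adjusted p = 0.73). Of all 15010 genes in that fit, 0.480%, 0.266% and 0.0133% were called in the same order.

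**Figure D3:**
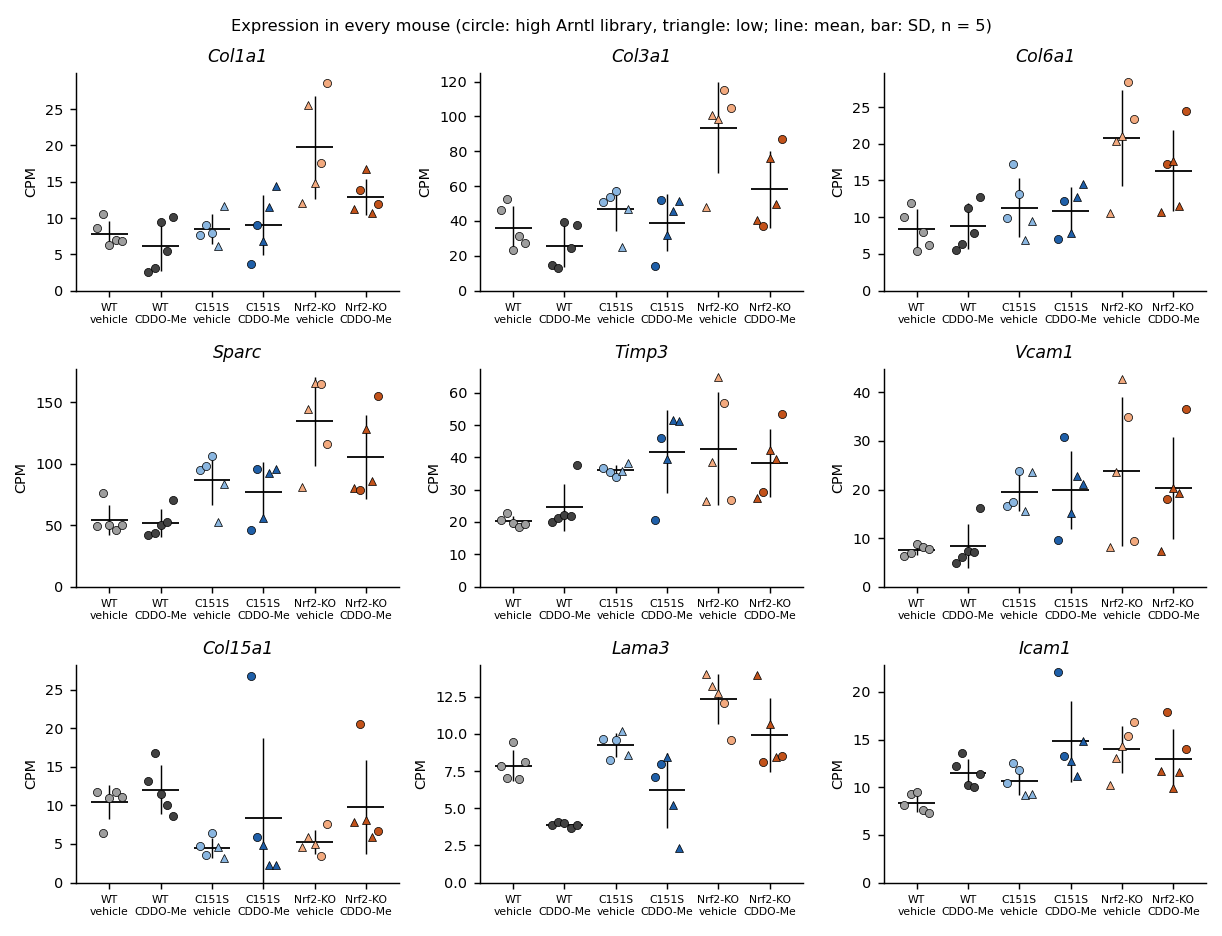
CPM of 9 genes in each of the 30 mice, by group, with the mean (line) and SD (bar) of 5 mice, and with circles for libraries on the high Arntl side and triangles for the low side. Col1a1, Col3a1, Col6a1 and Sparc are highest in vehicle-treated Nrf2-knockout mice, Timp3 and Vcam1 are higher in most mutant than WT mice, Col15a1 is lower in vehicle-treated mutant mice, and Lama3 drops to between 3.65 and 4.08 CPM in CDDO-Me-treated WT mice.

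The same genotypes were compared after CDDO-Me. Of the 37 genes tested, 8 were higher in Nrf2-knockout than WT livers and 0 lower, where 9.44% of all genes tested were called and 4.59% were called higher. The median log2 fold change was 0.65 against 0.03 over all genes tested, and 36 of 37 values were positive. With 6 genes the groups did not overlap, against 4.51% of all genes tested. Lama3 had the lowest p. Its values of 14, 8.11, 10.6, 8.42 and 8.50 CPM were all above the treated WT mice, with a log2 difference of 1.35 (SE 0.16, adjusted p = 2.2e-04), and both the level in vehicle-treated mice and the drop in treated WT mice enter this value. Sparc was at 41.8, 43.5, 50.3, 52.2 and 70.1 CPM in WT and 79.9, 78.6, 129, 85.8 and 155 CPM in Nrf2-knockout mice, with a log2 difference of 1.04 (SE 0.21, adjusted p = 0.0089) and no overlap, and Col5a1 at 6.32, 5.34, 7.03, 6.69 and 8.08 against 8.86, 11.2, 14.5, 11.2 and 17.3 CPM, with a log2 difference of 0.92 (SE 0.18, adjusted p = 0.0072) and no overlap. The other 5 were Col5a2, Eln, Col3a1, Col6a2 and Col6a1, with log2 differences of 1.08, 1.18, 1.17, 0.93 and 0.90 (adjusted p = 0.018, 0.02, 0.043, 0.044 and 0.049). Their levels were 2.52, 2.36, 4.07, 3.79 and 5.22 against 4.96, 6.19, 9.18, 7.05 and 10.5 CPM for Col5a2, 1.63, 1.06, 2.30, 1.53 and 3.53 against 4.54, 4.65, 4.36, 3.28 and 5.91 CPM for Eln, and 14.7, 13.2, 39.6, 24.3 and 37.6 against 40.5, 37.3, 76.2, 49.5 and 86.9 CPM for Col3a1, in WT and Nrf2-knockout mice. In each of these 3 genes a single Nrf2-knockout mouse lay inside the WT range. Col6a2 was at 2.91, 3.68, 6.58, 3.76 and 7.37 against 6.82, 9.43, 9.69, 7.02 and 13.4 CPM and Col6a1 at 5.55, 6.34, 11.3, 7.85 and 12.7 against 10.7, 17.2, 17.7, 11.6 and 24.4 CPM, and in both Nrf2-knockout mice 1 and 4 lay inside the WT range.

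This count of 8 moved with single mice and with the settings. It was 20 with the replicate number as a block (8.93% of all genes tested, against 9.44% for the count of 8), 18 by DESeq2 (11.9%), 15 without a filter on low counts (5.30%), 14 with the Arntl side as a covariate (8.27%) and 13 with upper-quartile factors (9.79%). It was 4 without the fourth WT mouse and 5 without the first or second WT mouse or the third Nrf2-knockout mouse. It was 13 without the fifth WT mouse and 16 without the first Nrf2-knockout mouse. The share over all genes tested is not given for these left-out fits, so a change over all genes cannot be told apart. On the high Arntl side the count was 12 (7.49% of all genes tested). Between CDDO-Me-treated C151S and WT mice 0 of 37 passed by edgeR's test, where 5.0% of all genes tested were called. An unadjusted p under 0.05 was found for 7 of the 37 and for 24.6% of all genes tested. DESeq2 called 2 (8.34% of all genes tested), as did edgeR on the high Arntl side (2.03%). Col4a2 had the lowest p, at 28.7, 23.7, 24.8, 24.6 and 26.7 CPM in WT and 38.7, 35.8, 31.4, 30.6 and 34.3 CPM in C151S mice, with a log2 difference of 0.42 (SE 0.09, adjusted p = 0.021), no overlap and a size under the limit. Without the first C151S mouse, which was the lowest of its group for 24 of 37 genes, 4 passed. Without the fifth WT mouse or the fifth C151S mouse 2 and 1 passed. For these fits, too, the share over all genes tested is not given.

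Over the group means, 32 of the 39 genes were highest in vehicle-treated Nrf2-knockout mice. The exceptions were Fn1, Icam1 and Mmp14, highest in CDDO-Me-treated C151S mice, Lamb3 and Timp1, highest in CDDO-Me-treated Nrf2-knockout mice, Col15a1, highest in CDDO-Me-treated WT mice, and Col18a1, highest in vehicle-treated WT mice. CDDO-Me-treated WT mice had the lowest mean of 25 genes and vehicle-treated WT mice that of 10. Fn1, the most abundant transcript of the 39 in CPM, was at 1361 ± 138, 1499.9 ± 69.7, 1421 ± 268, 1928 ± 602, 1713 ± 215 and 1810.04 ± 527 CPM (SD, n = 5 per group) in vehicle-treated and CDDO-Me-treated WT, C151S and Nrf2-knockout mice, and was called in no comparison. Timp1 averaged 0.0653 CPM in vehicle-treated WT and 0.333 CPM in CDDO-Me-treated Nrf2-knockout mice, where single libraries held 3 to 25 counts, and was not tested.

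Members of 1 group tended to be low or high together in the same mice. The first vehicle-treated Nrf2-knockout mouse had the lowest value of its group for 31 of the 37 genes counted (without Timp1 and Lox), and the fourth vehicle-treated C151S mouse for 33. The first mouse was the lowest for 20 genes among CDDO-Me-treated WT, for 24 among CDDO-Me-treated C151S and for 23 among CDDO-Me-treated Nrf2-knockout mice. The fifth CDDO-Me-treated Nrf2-knockout mouse was the highest for 28, the second vehicle-treated WT mouse for 26 and the fifth CDDO-Me-treated WT mouse for 23. Mice were ranked over these 37 genes only, so a shift shared by many other genes of a library cannot be told apart.

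Some markers of the cells that make matrix were also higher in the same livers. The markers of stellate cells, summed, ranged from 187 to 284 CPM in vehicle-treated WT mice, 192 to 388 in C151S mice and 208 to 467 in Nrf2-knockout mice, and 3 of 9 were called higher in Nrf2-knockout mice (Pdgfrb, Des and Colec11, at 0.94, 0.56 and 0.61 on the log2 scale) and 1 of 9 in C151S mice (Rgs5, 1.06). Those of myofibroblasts and smooth muscle ranged from 9.50 to 18.2, 9.21 to 22.9 and 14.8 to 33.7 CPM in the same order, with Cnn1 at 3 counts or fewer in all WT mice, and 3 of 4 tested were higher in Nrf2-knockout mice (Myh11 1.74, Acta2 1.58 and Tagln 0.86). Those of sinusoidal endothelium ranged from 236 to 289, 279.9 to 414 and 292 to 489.9 CPM, and 5 of 8 were higher in Nrf2-knockout mice, among them Stab1 (0.77) and Stab2 (0.78), and 2 of 8 in C151S mice (Gpr182 0.56 and Fcgr2b 0.51). For other endothelium the ranges were 40.8 to 49.4, 43 to 68.9 and 52.7 to 85.6 CPM, with 2 of 5 higher in Nrf2-knockout mice (Pecam1 0.69 and Sox17 0.86), and for portal fibroblasts 4.47 to 6.26, 5.11 to 7.40 and 6.65 to 10.6 CPM, with Mfap4 higher (1.17). Of other lists, 0 of 7 hepatocyte, 0 of 6 Kupffer cell, 0 of 5 cholangiocyte, 0 of 5 mesothelium, 0 of 6 lymphocyte and 0 of 1 gut markers tested passed between vehicle-treated Nrf2-knockout and WT mice. Without passing, most were positive for Kupffer cells (5 of 6, median log2 fold change 0.33), cholangiocytes (5 of 5, 0.18), mesothelium (4 of 5, 0.18) and lymphocytes (4 of 6, 0.47). For hepatocytes 3 of 7 were positive, with a median of -0.07. The neutrophil genes S100a8 and S100a9 were higher there (2.22 and 1.78), with Ly6g at 3 counts or fewer in all mice of both groups, 3 of 4 erythroid genes were lower, and of the pancreas list only Cela2a was tested and was higher (1.19). In C151S mice with vehicle Sox17 was higher (0.96), 1 of 5 markers of other endothelium, and Spp1 lower (-0.83), 1 of 5 cholangiocyte markers tested. After CDDO-Me, 1 of 9 stellate cell markers tested was higher in Nrf2-knockout than WT mice (Rgs5 1.15). Tagln (1.14) and Acta2 (1.67) were also higher, 2 of 4 markers of myofibroblasts and smooth muscle. Gpr182 (0.67), 1 of 8 markers of sinusoidal endothelium, and Pecam1 (0.57), 1 of 5 of other endothelium, were higher. Cd34 (0.90), 1 of 4 markers of portal fibroblasts, and Cela2a (1.82), the only pancreas marker tested, were higher too. Of 6 Kupffer cell markers Marco was lower (-2.14), but 3 were positive, with a median log2 fold change of 0.02. Between CDDO-Me-treated C151S and WT mice the hepatocyte gene Tat (1.06), the stellate cell gene Hand2 (0.72) and Fcgr2b (0.66) were higher in C151S mice. They were 1 of 7 hepatocyte, 1 of 9 stellate cell and 1 of 8 sinusoidal endothelium markers tested. Marco (-1.13) was lower there, whereas 4 of the 6 Kupffer cell markers were positive, with a median log2 fold change of 0.14. The part of any of these cell types in the values of the matrix genes was not tested.

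**Figure D4:**
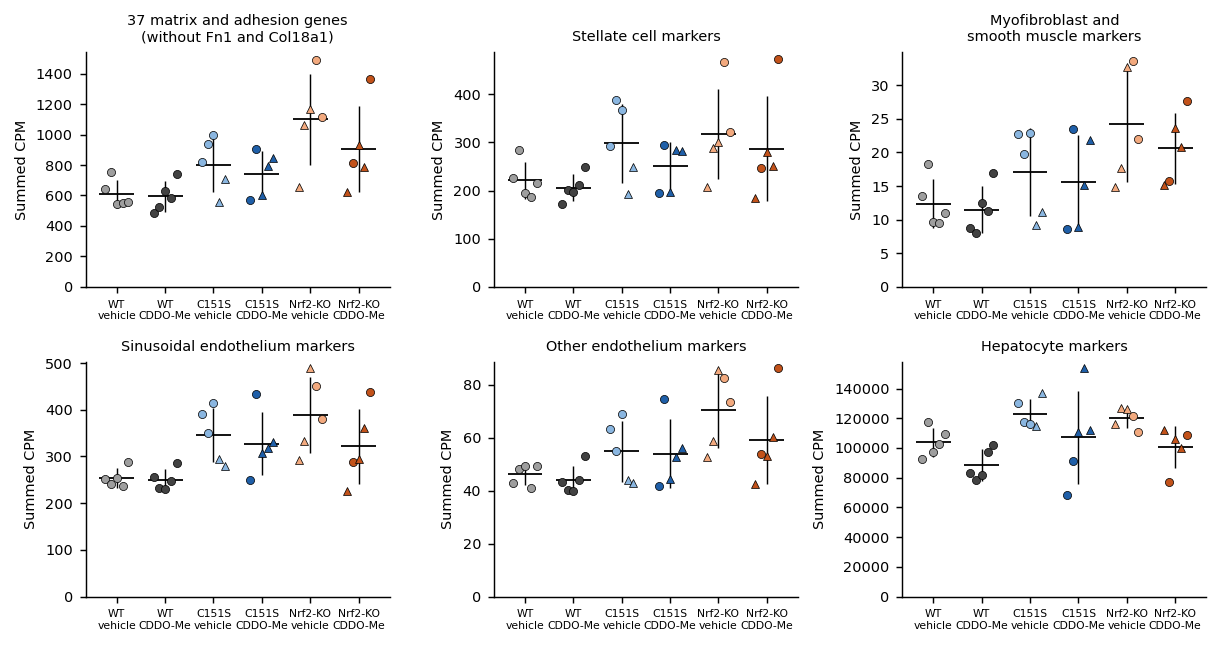
Summed CPM of the 37 matrix and adhesion genes other than Fn1 and Col18a1 and of 5 lists of cell type markers (stellate cell, myofibroblast and smooth muscle, sinusoidal and other endothelium, hepatocyte) in each mouse, by group, with the mean (line) and SD (bar) of 5 mice, and with circles for high and triangles for low Arntl libraries. The matrix sum, the stellate cell, smooth muscle and endothelial sums all have their highest group mean in vehicle-treated Nrf2-knockout mice. Hepatocyte markers are highest in vehicle-treated C151S mice.

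Other genes of the pathway were read from lists that hold none of the 39. Among 35 other matrix genes tested, 15 were higher and 2 lower in vehicle-treated Nrf2-knockout than WT mice. Among them Col4a5, a type IV chain of more restricted membranes, had a log2 difference of 2.09 (SE 0.31, adjusted p = 0.0018), and Tnc, the tenascin of remodelling tissue, one of 2.08 (SE 0.31, adjusted p = 0.0019). Efemp2, a fibulin of elastic fibres, and Mfap4, a microfibril-associated protein, were higher by 0.76 and 1.17 on the log2 scale. Col5a3 and Col27a1, named after their values were seen, were the 2 that were lower, at -0.84 and -1.58 with vehicle and -1.32 and -1.80 after CDDO-Me on the log2 scale. In C151S mice the 2 of 35 called with vehicle were Col4a5, with a log2 difference of 1.73 (SE 0.20, adjusted p = 0.0011), and Postn, with one of 1.13 (SE 0.26, adjusted p = 0.023). Of 23 matrix-processing enzymes tested, 3 were higher and 2 lower in Nrf2-knockout mice with vehicle, among them Pcolce, which helps to trim procollagen (0.75), and P4hb, a subunit of prolyl hydroxylase, which was lower (-0.54). Among 17 integrins, the receptors for matrix, 4 were higher (Itga9 0.73, Itgb4 0.82, Itgb3 0.89 and Itgb7 0.75), as were 4 of 14 other adhesion molecules (Pecam1, Mcam 1.10, Esam 0.59 and Icam2 0.62). On the axis of transforming growth factor beta, the main inducer of collagen in stellate cells, 4 of 22 were higher, with the ligand Tgfb1 at 0.98 (SE 0.17, adjusted p = 0.0037), its co-receptor Eng at 0.55, Tgfbi at 0.72 and Ltbp4 at 0.60. In C151S against WT mice with vehicle Smad7 of this axis was higher (0.91), and the enzyme Mmp19 (-0.51) and the integrin Itga7 (-0.60) were lower. In WT mice CDDO-Me changed 1 of 17 integrins, Itga6 (0.82), a receptor for laminin, and 0 genes of the other 4 lists. After CDDO-Me, 6 of 36 other matrix genes were higher and 2 lower in Nrf2-knockout than WT mice, with Col4a5 (1.79) lowest in p. Of 23 processing enzymes, Tgm2 (0.71) and Plod2 (1.17) were higher and Mmp19 (-0.59) lower. On the transforming growth factor beta axis, Tgfbi (0.85) and Ccn2 (1.81) were higher and Ccn1 (-1.93) lower, with a median of 0.04 over 22 genes. Itgb3 (1.52), Cd34 and Pecam1 were also higher. In treated C151S against WT mice Col4a5 (1.44), Itgb3 (1.12) and Jam2 (0.67) were higher and Col27a1 (-1.35) and Mmp19 (-0.67) lower.

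**Figure D5:**
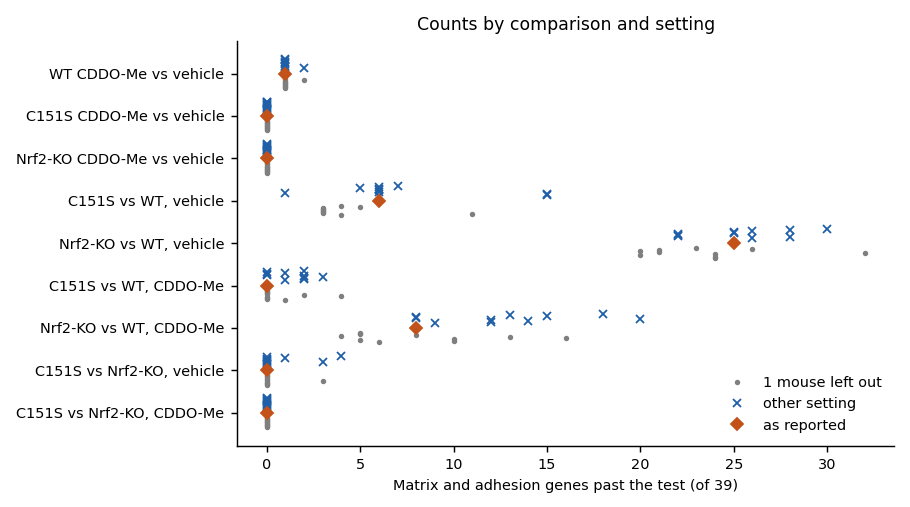
Number of the 39 genes past the test in each comparison, as reported (diamonds), with 1 mouse left out (dots) and with another setting (crosses). The count for Nrf2-knockout against WT mice with vehicle stays between 20 and 32, whereas the counts for C151S against WT with vehicle (1 to 15) and Nrf2-knockout against WT with CDDO-Me (4 to 20) are spread widely.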

How the data were processed

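RNA-seq was performed on liver RNA of 30 mice, and a table of raw counts per gene was deposited. Per the labels and the study's methods, the authors checked read quality with fastp, removed no reads or bases at that step, aligned to mm10 with STAR 2.7.7 and used edgeR 3.36.0. The deposited values are counts with no normalization. Library totals on genes set the precision of low transcripts, and 3 counts was taken as the floor of detection.

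Gene names, coordinates and exon lengths were taken from GENCODE M21 (GRCm38), with which all 39 symbols matched. For Col5a1, Lama2 and Hspg2 the identifier in the count table has another version than in M21. Their coordinates and exon lengths are those of M21. Comparisons used edgeR 4.0.16 in R 4.3.3 with limma 3.58.1 on the 10 libraries of the 2 groups: genes were filtered by expression, scaled with TMM factors, and compared by the quasi-likelihood test with Benjamini-Hochberg adjustment over all genes tested. A gene was called when its false discovery rate was below 0.05 and its log2 fold change was 0.5 or more in size. Responses were contrasted in 1 fit of all 30 libraries at a false discovery rate under 0.05. The SE equals the size of the log2 fold change over the root of F. The dates of RNA isolation that the study's model included are not in the labels and were not used here. P-values measure the spread between mice.

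The 39 genes and the lists of other genes were chosen with earlier results of these data known. Genes called in any comparison, or lowest in p in one, are described in full. From each list of other genes up to 4 called genes of lowest p were named per comparison, but not always all 4, and Col5a3 and Col27a1 were named besides. Alternatives were DESeq2 1.42.0, upper-quartile factors, other filters, the newer quasi-likelihood form, the replicate number as a block, a single fit, the Arntl side of the libraries, and each mouse left out. For fits with a mouse left out, shares over all genes tested are not given. The script was tested on simulated data with known fold changes. Promoter windows are those of RefSeq (GRCm38.p6).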

Additional observations from a re-analysis of the deposited data

Results flagged for a closer look

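In 11 of the 168 sets of 5 mice examined, a single mouse stood apart from the other 4 of its group by Dixon's test at the 95% level. Chance alone marks about 1 in 20 such sets. The second vehicle-treated WT mouse stood apart in 4 genes. It had 45.8 CPM of Col4a1 against 33.6 to 36.5 CPM in the others, 76.2 CPM of Sparc against 45.9 to 50.5, 4.73 CPM of Eln against 1.37 to 1.94, and 6.46 CPM of Col15a1 against 11 to 11.8. The fifth CDDO-Me-treated WT mouse had 37.6 CPM of Timp3 against 19.9 to 22.0 and 16.1 CPM of Vcam1 against 4.85 to 7.42.

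Among mutant mice, the first vehicle-treated Nrf2-knockout mouse had 48.1 CPM of Col3a1 against 98.4 to 115 CPM in the others. The fifth CDDO-Me-treated Nrf2-knockout mouse had 117 CPM of Col14a1 against 40.4 to 59.5. The second had 20.5 CPM of Col15a1 against 5.87 to 8.11 and 15.6 CPM of Lamb3 against 3.59 to 5.33. The first CDDO-Me-treated C151S mouse had 26.8 CPM of Col15a1 against 2.32 to 5.85.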

How the results depend on the processing

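The count for Nrf2-knockout against WT mice with vehicle (25 genes) stayed within 1.5 times under every alternative run, with 20 to 32 when a mouse was left out. For C151S against WT with vehicle (6 genes) it was 1 in a single fit of all 30 libraries (2.54% of all genes tested), 15 with the Arntl side as a covariate (13.7%), 15 on the high Arntl side (14.2%), and 3 to 11 when a mouse was left out. For C151S against WT with CDDO-Me (0 genes) it was 2 by DESeq2 (8.34% of all genes tested), 1 without a filter on low counts (2.94%), 2 with the replicate block (5.97%), 3 in a single fit (6.67%), 2 with the Arntl covariate (2.77%), 2 on the high Arntl side (2.03%), 1 with no threshold on the fold change, and 0 to 4 when a mouse was left out. For Nrf2-knockout against WT with CDDO-Me (8 genes) it was 18 by DESeq2 (11.9% of all genes tested), 13 with upper-quartile factors (9.79%), 15 without a filter (5.30%), 20 with the replicate block (8.93%), 14 with the Arntl covariate (8.27%), and 4 to 16 when a mouse was left out. For C151S against Nrf2-knockout mice with vehicle (0 genes) it was 4 by DESeq2 (1.26% of all genes tested), 1 without a filter (0.277%), 3 with the Arntl covariate (0.621%), and 0 to 3 when a mouse was left out. For CDDO-Me against vehicle in WT mice (1 gene) it was 2 with no threshold on the fold change and 1 to 2 when a mouse was left out. The cause of these shifts was not tested. The other 6 counts stayed at 0, and no fold change turned its direction among the 48 pairs of gene and comparison that were called or lowest in p. Upper-quartile factors moved the median of all genes by up to 0.09 (log2), more than the -0.01 of Col18a1 between vehicle-treated Nrf2-knockout and WT mice. Same-numbered mice did not deviate together in all pairs of any comparison, with at most 3 of 5 pairs best with their own number, so the replicate numbers were not taken as pairing, and the replicate block gave 22 genes for Nrf2-knockout against WT with vehicle and 6 for C151S against WT with vehicle. On the low Arntl side alone, the 4 comparisons among mutant mice gave 0. Low depth per gene limits Timp1 and Lox, which had few counts.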
